A study of Mus musculus with 20 samples.

Results

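Stereocilia actin bundle genes were followed through bulk RNA-seq of the cochlea of Bai1 tm2b mice. The group holds 10 of the 24411 genes with a row in the count files, listed for their known roles in the actin core and the length control of stereocilia. They are Espn, Fscn2 and Pls1 (bundling proteins of the shaft), Espnl (an espin relative) and Triobp (the rootlet). The others are Myo15, Whrn, Eps8 and Eps8l2 (the tip) and Xirp2 (actin repair). The rule that lists them uses no measured value, but the members were chosen with earlier results of these data known. The study had already named Espn among the genes higher in homozygous cochleae at postnatal day 22.

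Stereocilia are the actin-filled projections on the apical surface of hair cells, arranged in rows of graded height that carry the mechanotransduction channels. Each is a bundle of parallel actin filaments held together by crosslinkers, anchored in the cell by a dense rootlet, and lengthened at its tip by a complex that the motor protein myosin XVa delivers. Loss of function of many of these genes is known to cause deafness in mice or humans. Bundles are built and thickened over the early postnatal weeks in mice, and hearing begins within this time.

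The libraries were made from the microdissected apical cochlea, with sensory epithelium and spiral ganglion together, from C57BL/6N mice of both sexes. Each of the 20 libraries was a pool of 4 mice. At postnatal day 22 (P22) there were 3 libraries from heterozygous Bai1 tm2b/+ mice (Het) and 3 from homozygous Bai1 tm2b/tm2b mice (Homo). At postnatal day 7 (P7) there were 7 of each genotype, 3 deposited as counts (replicates 5 to 7) and 4 as rounded TPM (replicates 1 to 4). TPM are transcript levels per length scaled to a common total, and counts are given below as CPM, counts scaled to a common library total. The tm2b allele removes exons of Adgrb1, the gene of BAI1, and leaves a lacZ cassette, so that the long isoform is lost and the short isoform remains. Het littermates served as controls and also carry 1 tm2b allele. All mice share the strain's hypomorphic Cdh23 allele. The study examined BAI1 at the afferent synapse of inner hair cells, and the question followed here is whether the transcripts of the hair bundle differed between genotypes and between ages. In a bulk sample, fewer cells of a type and less RNA per cell cannot be told apart.

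Libraries summed to 35725985 to 40350413 counts at P22 and 31108551 to 58807173 counts at P7, and the depth is unknown for the libraries in rounded TPM. Adgrb1 itself, summed over its transcripts, was at 137 to 151 CPM in Het and 90.8 to 95.8 CPM in Homo at P22. At P7 it was at 35.5 to 61.5 CPM in Het and 23.8 to 34.3 CPM in Homo, and at 7 to 12 rounded TPM in Het and 9 to 12 in Homo. Hair cells were represented at both ages: Myo7a, a myosin of hair cells, had 1408 to 2018 counts per library at P22 and 2081 to 2758 at P7. Among the hair cell markers, only Atoh1, a transcription factor of nascent hair cells, was at 0 in a P22 library, with 0 to 13 counts.

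Of the members, 9 of 10 had an entry among the RefSeq promoters of GRCm38.p6, with 12 start sites in all. Espn and Myo15 were the members that passed every threshold of the P22 genotype comparison, and their promoters are shown for that reason. The windows below are the 250 bases before the annotated start of transcription, written along the strand of the gene, with each CAGCTG (an E-box, which reads the same on both strands) in capitals. Espn lies on the minus strand of chromosome 4 and has 3 such start sites, of which the middle one (chr4:152136326-152136575) holds no CAGCTG. Myo15 lies on the plus strand of chromosome 11.
Espn, start nearest the 3′ end of the gene (chr4:152128926-152129175): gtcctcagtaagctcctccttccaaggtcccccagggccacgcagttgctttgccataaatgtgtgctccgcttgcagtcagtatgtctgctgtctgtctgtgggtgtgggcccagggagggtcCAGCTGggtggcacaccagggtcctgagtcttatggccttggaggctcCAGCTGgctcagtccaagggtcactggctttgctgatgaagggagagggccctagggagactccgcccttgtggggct
Espn, start farthest from it (chr4:152152390-152152639): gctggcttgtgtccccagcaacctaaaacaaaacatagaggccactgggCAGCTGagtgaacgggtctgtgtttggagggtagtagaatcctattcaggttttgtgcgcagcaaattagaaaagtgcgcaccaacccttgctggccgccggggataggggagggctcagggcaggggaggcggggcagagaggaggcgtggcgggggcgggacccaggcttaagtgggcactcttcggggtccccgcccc
Myo15 (chr11:60469089-60469338): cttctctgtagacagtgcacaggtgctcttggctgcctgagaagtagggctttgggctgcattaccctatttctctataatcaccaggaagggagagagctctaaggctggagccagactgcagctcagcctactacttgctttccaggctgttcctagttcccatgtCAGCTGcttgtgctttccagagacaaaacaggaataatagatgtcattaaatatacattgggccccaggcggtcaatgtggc
The hexamer begins 126 and 78 bases before the first of these Espn starts, 201 bases before the other and 82 bases before the Myo15 start. It was found in 3 of the 12 member promoters, from 2 genes, and in 13.0% of 32851 promoters of the same length. A second E-box, CAGATG, searched on both strands, was found in 1 member promoter (Espnl, 57 bases before the start) and in 14.4% of all promoters. The TATA box TATAAA, also searched on both strands, was found for Fscn2 on the strand opposite to the gene, 234 bases before the start, and in 12.4% of all. The counts are per gene and do not say which start was used.

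At P22, Espn was the member that differed most between genotypes. Espn encodes espin, the actin crosslinker whose loss shortens stereocilia in the jerker mouse. The Het libraries had 13.6, 11.4 and 13.3 CPM and the Homo libraries 25.7, 26.5 and 23.7 CPM. The lowest Homo library was far above the highest Het library, and the means were 12.8 ± 1.18 and 25.3 ± 1.47 CPM (SD, n = 3). The log2 fold change of Homo over Het was 0.99 (SE 0.0924, adjusted p = 0.000588, quasi-likelihood test of edgeR, adjusted over 15443 genes by the Benjamini-Hochberg method), an increase of 98.0%.

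Myo15 also rose. It encodes myosin XVa (MYO15A in humans), the motor that carries whirlin and EPS8 to the tips of stereocilia and whose loss leaves them short. Its levels were 20.5, 13.6 and 16.5 CPM in Het and 22.04, 28.4 and 27.5 CPM in Homo. The genotypes did not overlap, although the highest Het and lowest Homo library lay close together. The log2 fold change was 0.62 (SE 0.144, adjusted p = 0.0204). A call required an adjusted p under 0.05, a log2 fold change above 0.5 in size and a standard error under 0.5. These follow the thresholds of the study, whose log2 standard deviation was read here as the standard error of the log2 fold change. By this rule 2 of the 10 members were higher in Homo and 0 were lower, where 1.74% of all genes tested were called higher and 1.41% lower.

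A further 3 members passed the adjusted p but stayed under the fold threshold. Fscn2, fascin 2, crosslinks actin along the shaft of mature stereocilia. It was at 9.93, 9.96 and 9.49 CPM in Het and 12.4, 11.8 and 15.2 CPM in Homo, a log2 fold change of 0.42 (SE 0.117, adjusted p = 0.0409). Eps8l2, an EPS8-like protein of stereocilia tips, was at 50.7, 53.8 and 47.3 CPM in Het and 60.1, 63.1 and 65.8 CPM in Homo, a log2 fold change of 0.32 (SE 0.0683, adjusted p = 0.0157). Of the exon bases of Eps8l2, 32.2% overlap B230206H07Rik on the opposite strand, and whether the counting used strand is not stated, so that reads of both genes may be mixed. Triobp encodes the protein that winds actin into the rootlet, and other isoforms of it are made in many cell types. It was at 73.5, 71.5 and 70.1 CPM in Het and 81.4, 85.3 and 90.6 CPM in Homo, a log2 fold change of 0.26 (SE 0.0607, adjusted p = 0.0220). In each of these genes the groups did not overlap. In all, 5 of 10 members were higher at an adjusted p under 0.05, against 5.04% of all genes tested.

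The other members did not pass the test at P22. Eps8, the actin-capping and bundling protein of the tips of the tallest row, had groups that did not overlap (7.60 to 8.49 CPM in Het, 8.93 to 11.5 CPM in Homo) with a log2 fold change of 0.34 (SE 0.125, adjusted p = 0.0991). With it, 6 of 10 members lay higher in every Homo than in every Het library, against 15.8% of all genes tested. Pls1, plastin 1 (fimbrin), a crosslinker of the shaft, was at 16.2 to 18.6 CPM in Het and 17.6 to 21.8 CPM in Homo, with a log2 fold change of 0.24 (SE 0.101, adjusted p = 0.146). Whrn, which encodes the scaffold whirlin, was at 18.7 to 23.0 CPM in Het and 20.1 to 21.8 CPM in Homo, a log2 fold change of -0.02 (SE 0.0910).

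The remaining members, Espnl and Xirp2, had the lowest counts at P22. Espnl encodes espin-like, an espin relative that class III myosins carry, and it was at 4.02, 1.27 and 1.01 CPM in Het and 1.82, 1.20 and 1.58 CPM in Homo. Xirp2, an actin-binding protein of muscle that is also made in hair cells, was at 3.72, 1.53 and 1.33 CPM in Het and 1.10, 2.02 and 2.64 CPM in Homo. In both, replicate 1 of Het stood above the other libraries. Their log2 fold changes of -0.45 (SE 0.456) and -0.19 (SE 0.415) turned to 0.42 and 0.43 without that library. Counts per library were 38 to 145 for Espnl and 45 to 134 for Xirp2, where those of the other members were at least 274. Over the 10 members the median log2 fold change at P22 was 0.29, and over all genes tested it was 0.01.

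**Figure D1:**
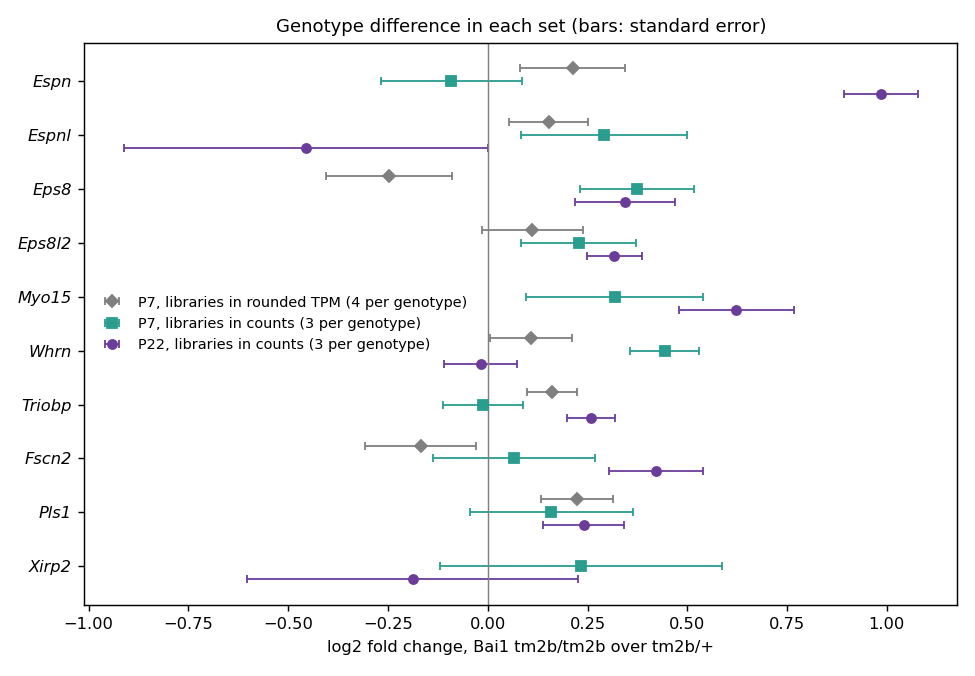
Log2 fold change of Bai1 tm2b/tm2b over tm2b/+ for each member (x axis) with its standard error, in the P22 libraries (circles), the P7 libraries in counts (squares) and the P7 libraries in rounded TPM (diamonds, without Myo15 and Xirp2, which were under the filter). Espn at P22 lies at 0.99, apart from its P7 values of -0.09 and 0.21.

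The P22 calls differed in how far they rested on single libraries. Espn was called with each library left out in turn, with log2 fold changes of 0.91 to 1.03 and adjusted p values of 0.000773 to 0.00483. Myo15 kept its direction (0.49 to 0.79) but was not called without Het replicate 2 (0.49), without Het replicate 3 (adjusted p = 0.0707), without Homo replicate 2 (adjusted p = 0.0811) or without Homo replicate 3 (adjusted p = 0.0589). Fscn2 passed the adjusted p in none of these 6 fits (0.0511 to 0.148). Eps8l2 and Triobp ranged from 0.00968 to 0.0691 and from 0.0263 to 0.0977. Eps8l2 did not pass the adjusted p without Het replicate 1, Homo replicate 2 or Homo replicate 3. Triobp did not pass it in the same fits, nor without Het replicate 3.

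Markers of hair cells moved in the same comparison. Of the 15 hair cell markers, 14 were tested at P22, 13 had a positive log2 fold change, 4 were called higher and 1 lower. Those higher were Barhl1, a hair cell transcription factor (0.92), Ocm, the calcium-binding oncomodulin of outer hair cells (0.70), Chrna10, an efferent receptor subunit (0.58), and Otof, the synaptic protein otoferlin (0.54). The one lower was Calb2, calretinin (-0.54), which is also made by spiral ganglion neurons and held most of the summed marker level. Summed with Calb2, the hair cell markers were at 4563 to 4785 CPM in Het and 3275 to 3676 CPM in Homo. Without Calb2 they were at 308 to 330 CPM in Het and 411 to 499 CPM in Homo, a ratio of 1.41 (exact 2-sided permutation test, p = 0.1, the smallest that 3 against 3 libraries allow). The ratio was 1.58 for the outer and 1.33 for the inner hair cell markers. The summed level of the 10 members was 204 to 223 CPM in Het and 252 to 280 CPM in Homo, a ratio of 1.26. Summed supporting cell markers were at 1291 to 1387 CPM in Het and 1501 to 1579 CPM in Homo, and neuron markers at 13646 to 15509 and 10206 to 11645 CPM. The share of these marker differences in the members' differences was not tested.

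When libraries were scaled so that the hair cell markers were level, Espn was the only member called higher. Its log2 fold change was then 0.58 (SE 0.124, adjusted p = 0.000136) in a fit where 0.33% of all genes were called higher and 28.3% lower. This scaling moved the median of all genes from 0.01 to -0.40, and the values of all 10 members fell with it. Myo15 was at 0.21 (adjusted p = 0.130) and Fscn2 at 0.00. Eps8, Eps8l2, Triobp and Pls1 turned to values between -0.08 and -0.18, with adjusted p values of 0.169 to 0.687. Espnl was called lower (-0.84, adjusted p = 0.0298), and was at 0.42 in the TMM fit without Het replicate 1. Whrn was at -0.43 (adjusted p = 0.00214), near the new median. With Calb2 left out of the markers, a choice made after seeing the data, Espn was at 0.51 (adjusted p = 0.000471) and Espnl, Whrn and Xirp2 were called lower (-0.91, -0.50 and -0.68).

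**Figure D2:**
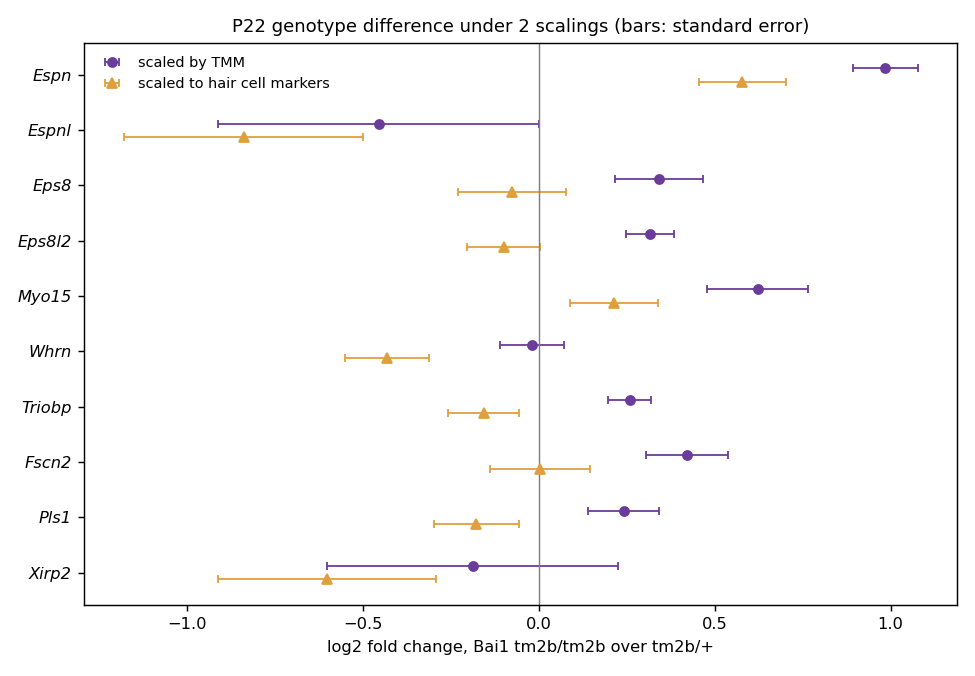
Log2 fold change of Bai1 tm2b/tm2b over tm2b/+ at P22 for each member (x axis) with its standard error, with libraries scaled by TMM (circles) or to the hair cell markers (triangles). All members shift to the left under the second scaling, with Espn still at 0.58 and Myo15 at 0.21.

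Muscle markers were checked for Xirp2, which striated muscle expresses. Of 14 such markers, Ckm, Myh1, Myh2, Myh4 and Myh7 were each at 0 in at least 1 P22 library, and their highest counts were 15, 12, 1, 3 and 8. The summed list was at 43.4 to 49.4 CPM in Het and 30.7 to 37.1 CPM in Homo, mostly from Neb and Ttn. Of 8 muscle markers tested, Ttn (-0.97) and Neb (-0.53) were lower and Actn2 (0.68) higher in Homo. The part of muscle RNA in the Xirp2 values was not tested.

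At P7, none of the members was called in either set of libraries. In the libraries in counts, edgeR called 0% of 16026 genes, and DESeq2 called 0 members. The share of all genes that DESeq2 called is not given here. An unadjusted p under 0.05 was reached by 2 of 10 members, Whrn and Eps8, against 4.76% of all genes. Whrn was at 30.0, 26.5 and 24.9 CPM in Het and 36.6, 37.6 and 36.5 CPM in Homo. Its groups did not overlap, as those of 5.76% of all genes with Homo higher, and it was the only member of which this held. The log2 fold change was 0.44 (SE 0.0863, unadjusted p = 0.00123, adjusted p = 0.894 by edgeR). By DESeq2 Whrn passed the adjusted p (log2 fold change 0.44, adjusted p = 0.0141) but stayed under the fold threshold, and over the other alternatives its adjusted p was 0.273 to 1. Eps8 was at 42.7, 30.9 and 34.0 CPM in Het and 40.1, 50.8 and 48.5 CPM in Homo, overlapping, with a log2 fold change of 0.37 (SE 0.142, unadjusted p = 0.0334 by edgeR).

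Espn, which differed at P22, did not differ detectably in these P7 libraries. It was at 24.3, 22.03 and 22.3 CPM in Het and 15.9, 26.5 and 22.2 CPM in Homo, a log2 fold change of -0.09 (SE 0.176). Homo replicate 5 was the lowest library, and without it the log2 fold change was 0.09. Homo replicates also spread more than Het replicates for Pls1 (37.3 to 67.7 CPM against 42.0 to 52.3 CPM) and Xirp2 (3.52 to 9.73 CPM against 4.28 to 6.12 CPM), with replicate 5 lowest and replicate 6 highest in both. The remaining log2 fold changes ran from -0.01 for Triobp to 0.32 for Myo15. In total 8 of 10 were positive, with a median of 0.23 against 0.00 over all genes. In the same libraries 14 of 15 hair cell markers were positive and 0 were called. Summed without Calb2, a choice made after seeing the data, they were at 499 to 816 CPM in Het and 600 to 865 CPM in Homo, a ratio of 1.11, and the members had a ratio of 1.13. Of 11 neuron markers 1 was positive, with a ratio of sums of 0.743. Their sums overlapped, at 1537 to 3132 CPM in Het and 1303 to 1910 CPM in Homo. Of 7 myelin and Schwann cell markers 0 were positive, with a ratio of 0.732. Their sums also overlapped, at 10409 to 17317 CPM in Het and 5935 to 12562 CPM in Homo. The part of these markers in the members' values was not tested.

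In the 8 libraries in rounded TPM, 8 of 10 members passed the filter of a mean of 5 TPM, and limma called none of them, where 0.809% of 11740 genes were called. An unadjusted p under 0.05 was reached by 2 of the 8, Triobp and Pls1, against 34.5% of all genes tested. Triobp was at 57, 52, 45 and 49 in Het and 59, 60, 65 and 61 in Homo. Its groups did not overlap, as those of 9.24% of all genes with Homo higher (exact 2-sided permutation test, p = 0.0286, the smallest that 4 against 4 libraries allow). The library values and exact tests given here are not scaled by TMM, whereas the limma fits are. In the scaled fit the log2 fold change of Triobp was 0.16 (SE 0.0639, adjusted p = 0.109 by limma). Pls1 was at 18, 16, 12 and 15 in Het and 19, 20, 18 and 20 in Homo, with a tie at 18 (exact permutation p = 0.0571). Its log2 fold change was 0.22 (SE 0.0905, adjusted p = 0.113 by limma).

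Espn was at 15, 16, 12 and 15 rounded TPM in Het and 14, 19, 23 and 18 in Homo, overlapping (exact permutation p = 0.114). Whrn was at 8 in every Het library and at 8 to 12 in Homo. Eps8 went the other way than in the libraries in counts, at 9 to 15 in Het and 9 to 14 in Homo, a log2 fold change of -0.25 (SE 0.158). Espnl (7 to 9 in Het, 9 to 11 in Homo), Eps8l2 (8 to 12 and 11 to 13) and Fscn2 (5 to 6 and 4 to 7) overlapped or met between genotypes. Below the filter, Myo15 stood at 1 in all 8 libraries and Xirp2 at 0 or 1, so that rounding leaves no difference to be seen. Of the cell type markers in these libraries, Otof (0.54) and the supporting cell genes Tecta (1.20) and Otog (0.56) were called higher in Homo. Without TMM scaling, the members summed to 116 to 139 in Het and 142 to 157 in Homo, and the inner hair cell markers to 55 to 67 and 72 to 81. The outer hair cell markers went the other way, at 253 to 446 in Het and 168 to 378 in Homo. All hair cell markers without Calb2 summed to 438 to 623 in Het and 355 to 594 in Homo, and 5 of the 11 tested were positive. Of 10 neuron markers tested, 9 were positive, with a ratio of sums of 1.23, unlike in the libraries in counts. Of 7 myelin and Schwann cell markers, 2 were positive, with a ratio of 0.967. The sums of each of these lists overlapped between genotypes. The part of these markers in the members' values was not tested.

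**Figure D3:**
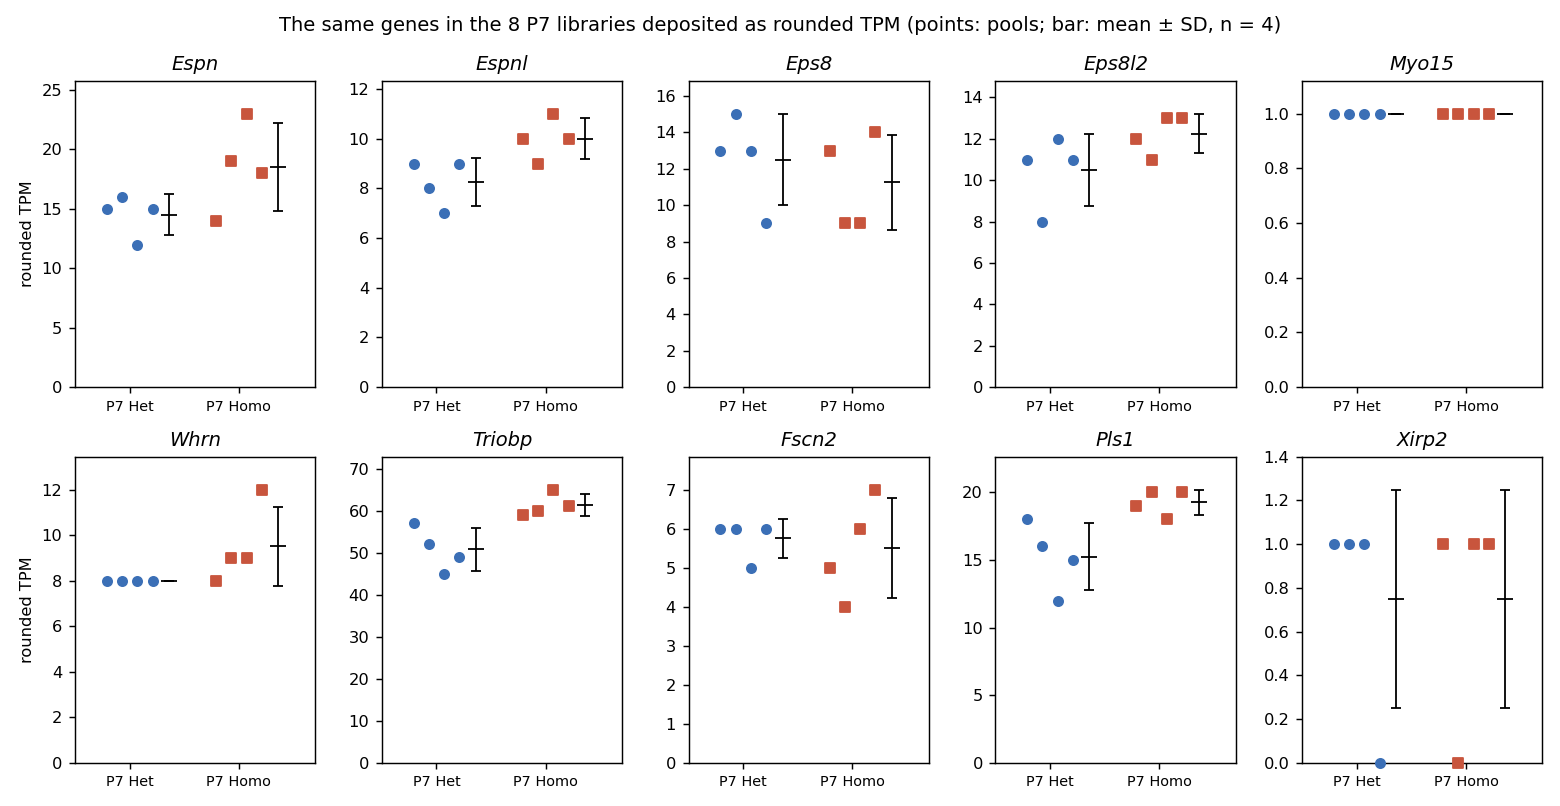
Rounded TPM of each member (y axis, from 0) in the 4 tm2b/+ (circles) and 4 tm2b/tm2b (squares) P7 libraries deposited in that unit, with the mean and SD. Triobp is the only member whose groups are fully apart, at 45 to 57 and 59 to 65, and Myo15 is at 1 in every library.

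The difference between the genotype effects at P22 and P7 was tested in 1 fit over the 12 libraries in counts. None of the members was called, where edgeR called 0.0306% of 16314 genes. An unadjusted p under 0.05 was reached by 3 of 10 members, against 10.2% of all genes. Espn had the largest difference, 1.09 on the log2 scale (SE 0.219, unadjusted p = 0.00031, adjusted p = 0.135 by edgeR). Whrn differed by -0.45 (unadjusted p = 0.0042, adjusted p = 0.289 by edgeR) and Triobp by 0.28 (unadjusted p = 0.0428 by edgeR). The Espn difference was called by DESeq2 (1.05, adjusted p = 0.0025), and by edgeR once P7 Homo replicate 5 was left out (0.90, adjusted p = 0.0185). The shares of all genes called in these fits are not given here. With any other library left out its adjusted p was 0.0903 to 0.323.

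Between P7 and P22 most members changed, in both directions. Age coincides with the deposited table and, by the study's methods, with the batch of libraries, and these cannot be told apart. Averaged over genotypes, 6 of 10 members were called lower at P22, where 28.7% of all genes were, and 2 were called higher, where 25.9% of all genes were. Values in CPM here are from the fit of all 12 libraries and so differ slightly from those above.

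Espnl fell most. It was at 74.6, 45.2 and 58.6 CPM in P7 Het and 58.5, 88.4 and 68.3 CPM in P7 Homo, and at 1.11 to 4.45 CPM in the P22 libraries. Every P22 library lay far below every P7 library, and the log2 fold change was -5.04 (SE 0.282, adjusted p = 3.61e-09). Eps8 fell by 1.90 on the log2 scale (SE 0.101), from 28.3 to 46.1 CPM at P7 to 8.41 to 12.7 CPM at P22. Pls1 fell by 1.14 (SE 0.129), from 32.6 to 61.5 CPM to 17.9 to 23.9 CPM. Triobp fell by 0.56 (SE 0.0629), from 111 to 141 CPM to 77.6 to 99.5 CPM. In these 4 members no P22 library reached a P7 library, against 32% of all genes with P22 lower. Myo15 (-0.73, SE 0.144) and Xirp2 (-1.21, SE 0.316) were called lower as well, with ages that overlapped.

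Fscn2 and Eps8l2 rose. Fscn2 was at 4.14 to 7.34 CPM at P7 and 10.5 to 16.7 CPM at P22, a log2 fold change of 1.17 (SE 0.123, adjusted p = 1.56e-06). Eps8l2 was at 31.7 to 47.1 CPM at P7 and 52.3 to 72.3 CPM at P22, a log2 fold change of 0.56 (SE 0.0806). It was not called without P7 Het replicate 6 (0.50). In both genes no P22 library was as low as a P7 library, against 30.6% of all genes with P22 higher. Whrn was lower by 0.29 (SE 0.0636, adjusted p = 0.000902), under the fold threshold.

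With TMM scaling, Espn went in opposite directions in the genotypes. Its values within each genotype under other scalings are not given here. In Het it fell from 20.2 to 22.01 CPM at P7 to 12.7 to 15.04 CPM at P22 (log2 fold change -0.56, SE 0.156, adjusted p = 0.00616). In Homo it rose from 13.9 to 24.02 CPM to 26.01 to 29.3 CPM (0.53, SE 0.154, adjusted p = 0.00791). No library of one age reached the other age in either genotype, and the mean over genotypes was -0.01 (SE 0.109). The test of this contrast between genotypes is the one given above, with an adjusted p of 0.135 by edgeR. Whrn was at -0.07 in Het (SE 0.0901) and lower at P22 in Homo (-0.52, SE 0.0899, adjusted p = 0.000211), a contrast that had an adjusted p of 0.289.

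**Figure D4:**
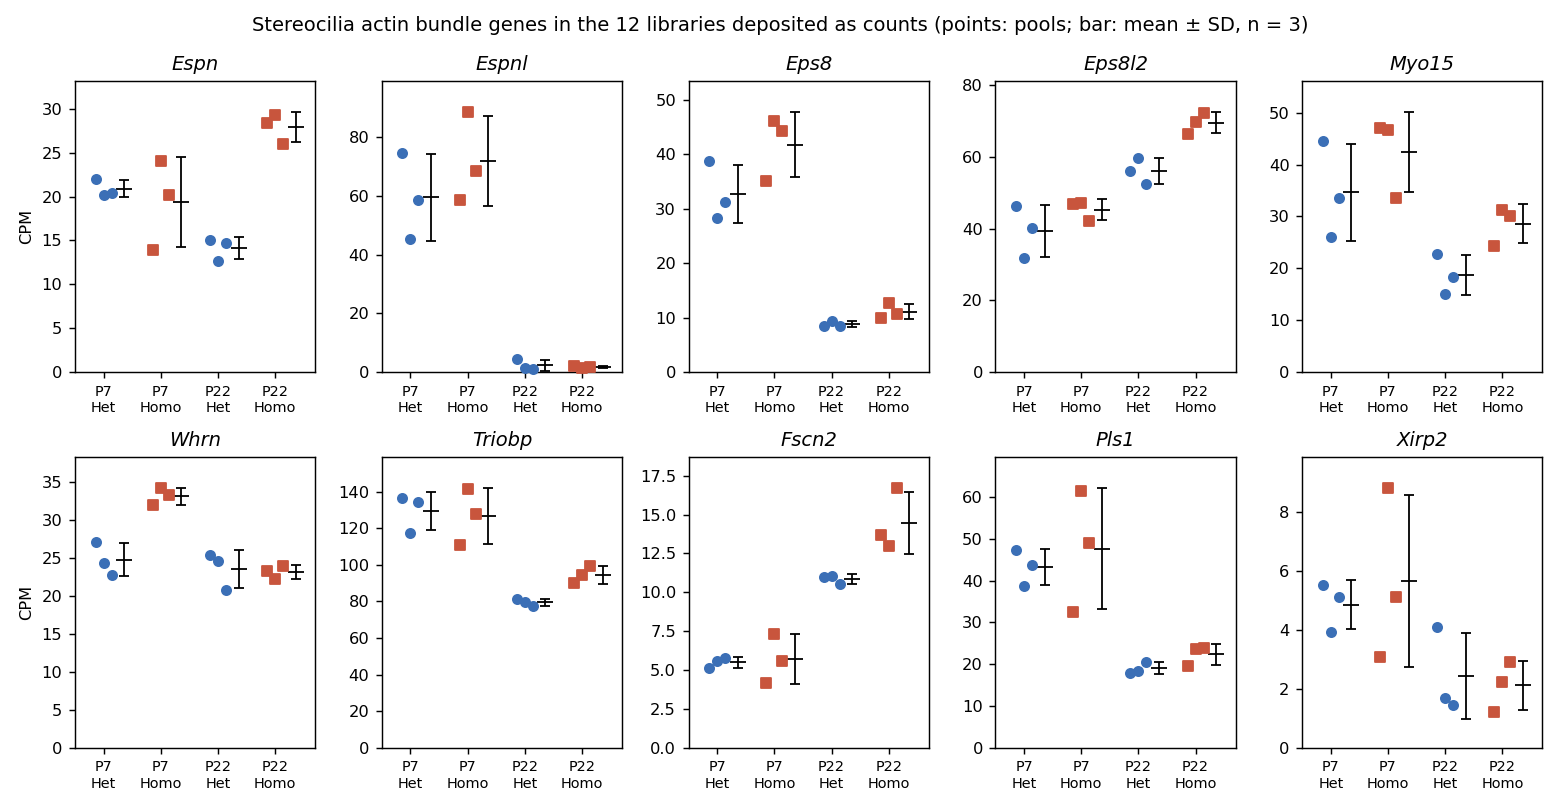
CPM of each member (y axis, from 0) in the 12 libraries deposited as counts, by age and genotype, with the mean and SD of 3 pools (circles tm2b/+, squares tm2b/tm2b). Espn is lowest in P22 tm2b/+ at 12.7 to 15.04 and highest in P22 tm2b/tm2b at 26.01 to 29.3, and Espnl is close to 0 at P22.

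**Figure D5:**
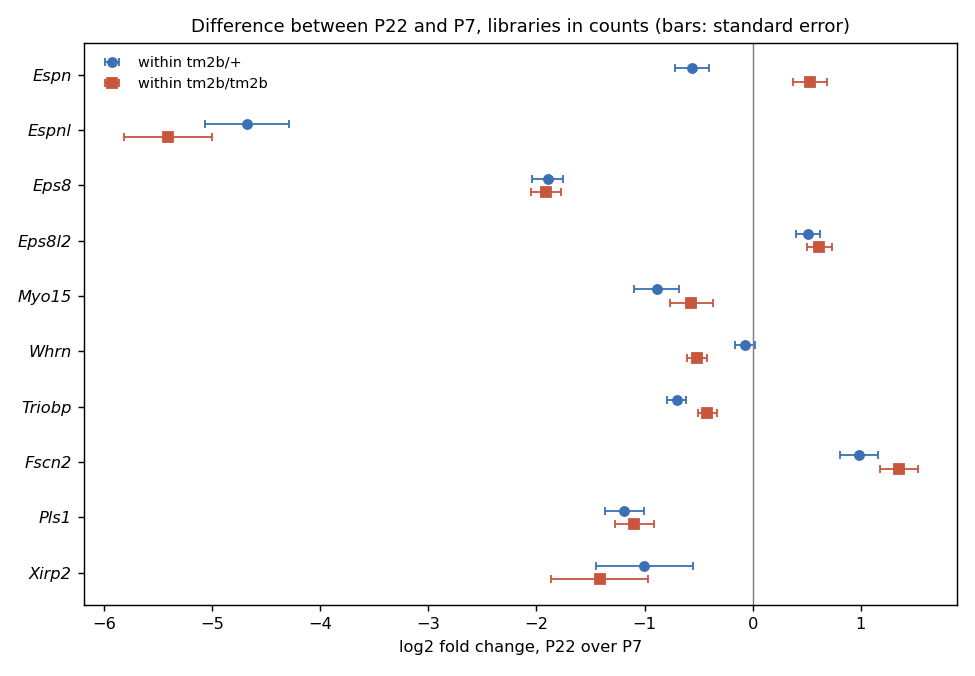
Log2 fold change of P22 over P7 (x axis) with its standard error for each member, within tm2b/+ (circles) and within tm2b/tm2b (squares). The genotypes lie close together for Eps8 and Pls1 and on opposite sides of 0 for Espn, at -0.56 and 0.53.

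The age comparison depended on the scaling. The hair cell markers were mostly lower at P22, with 9 of 15 called lower and 2 higher and a median of -1.08. Of the 11 neuron markers, 10 were called higher. Scaled to hair cell markers, which moved the median of all genes from -0.05 to 0.44, 3 members were higher and 4 lower. Espn was then higher at P22 (0.50, adjusted p = 0.000912), and Myo15 (-0.24) and Triobp (-0.06) were not called. Espnl (-4.53), Eps8 (-1.39), Pls1 (-0.61) and Xirp2 (-0.68) were still called lower, and Fscn2 (1.68) and Eps8l2 (1.06) higher. The markers used for this scaling include Calb2, which spiral ganglion neurons also make and which was higher at P22 (4.56). No age fit was run without Calb2, so how far these calls rest on it was not tested. Scaled to total counts, which moved the median to -0.34, 1 member was higher and 7 were lower. The shares of all genes called under these scalings are not given here, and the shares given above are from the TMM fit.

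Levels were compared between members only per length. In CPM per kb of merged exons at P7, the highest were Pls1 (11.1 ± 1.13 in Het and 12.3 ± 3.73 in Homo, SD, n = 3), Espnl (10.9 ± 2.71 and 13.2 ± 2.80) and Triobp (10.5 ± 0.850 and 10.3 ± 1.25), which did not differ beyond their spread. Eps8l2 (7.32 and 8.42) and Whrn (3.37 and 4.51) followed, and Xirp2 (0.406 and 0.474) was lowest. In the same unit at P22, Eps8l2 was highest (10.4 ± 0.689 and 12.9 ± 0.552) and Triobp next (6.46 ± 0.153 and 7.68 ± 0.391), with no overlap of their ranges of 1 SD. Fscn2 (5.14 and 6.85) and Pls1 (4.88 and 5.74) came after them. Espnl (0.427 and 0.31), among the highest at P7, was next to the lowest, Xirp2 (0.202 and 0.177). The order depended on the length used. Per kb of the longest transcript, Triobp was highest at P7 (17.7 in Het and 17.3 in Homo), while Eps8l2 remained highest and Xirp2 lowest at P22. Espn then moved up from the fifth place to the fourth in P22 Homo, since its 20 annotated transcripts merge to 8272 bases and the longest has 4618.

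The P7 libraries in rounded TPM gave another order. Triobp was highest there (50.8 ± 5.06 in Het and 61.3 ± 2.63 in Homo, SD, n = 4). Pls1 (15.3 ± 2.5 and 19.3 ± 0.957) and Espn (14.5 ± 1.73 and 18.5 ± 3.70) followed, and these neighbours did not differ beyond their spread. Then came Eps8, Eps8l2, Espnl and Whrn at 8 to 12.5, and Fscn2 at 5.75 ± 0.5 and 5.5 ± 1.29. In Het the spreads from Eps8 to Whrn overlapped from one to the next. In Homo Eps8l2 (12.25 ± 0.957) came before Eps8 (11.25 ± 2.63), and the spreads of Eps8l2 and Espnl (10 ± 0.816) did not overlap. Myo15 and Xirp2 were last. Unit and libraries both differ from those in CPM per kb, so the orders are given side by side.

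Other genes of the bundle, in lists chosen with the members, gave 2 calls at P22, both higher in Homo. Of 11 genes of actin and its turnover tested, 0 were called, with a median log2 fold change of 0.00. Diaph1 and Diaph3, also listed, had no values under these names and could not be tested. Of 3 other bundlers, Lcp1 (plastin 2, also abundant in leukocytes) was called higher (0.62, adjusted p = 0.00132 by edgeR), and summed macrophage markers were at 132 to 158 CPM in Het and 157 to 203 CPM in Homo. Summed neutrophil markers were at 5.21 to 12.3 and 5.11 to 47.1 CPM, and the part of leukocytes in Lcp1 was not tested. Of 7 genes of the tip and of row identity, Baiap2l2, a protein of the tips of the transducing rows, was called higher (0.88, SE 0.215, adjusted p = 0.0261). It was at 1.51 to 2.15 CPM in Het and 3.09 to 4.17 CPM in Homo. Of 2 ankle link genes and 11 genes of the stereocilia base and taper, 0 were called. At P7, 0 genes of these 5 lists were called in either set.

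Between P7 and P22 more genes of these lists were called lower than higher. Of the tip and row identity genes, 5 of 7 were called lower and 1 higher. Those lower included Myo3b (-3.76) and Myo3a (-2.31), the class III myosins that bind espins, and Baiap2l2 (-1.68), and Gnai1 was higher (0.91). Of the base and taper genes, 7 of 11 were called lower and 0 higher, led by Ptprq (-2.83), a phosphatase of the shaft connectors, Grxcr1 (-2.47), which is needed for normal bundle growth, and Ezr (-0.96), a membrane linker. Of the ankle link genes, 1 of 3 was lower, Adgrv1 (-1.51). Of the actin genes, only Capzb, a capping protein subunit, was called, with a value at the threshold (0.50). Fscn1 was lower (-0.75) and Lcp1 higher (0.65). These counts compare with the 28.7% of all genes called lower and 25.9% called higher.

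For each member, the gene most like it across the 12 libraries in counts was not another member. With so few members among so many genes, this does not show whether members vary together. Likeness was measured as the root mean square difference of log2 CPM after each gene was centred on its own mean, over 16313 other genes. The non-member nearest to Espn was Cldn14 (0.177). Those nearest to the other members were Mfap4 for Espnl (0.385), Eps8 with Etv5 (0.123), Eps8l2 with Ankrd24 (0.102), Myo15 with Acvr1c (0.167), Whrn with Myh6 (0.0985), Triobp with Sec61a1 (0.0623), Fscn2 with Zmynd12 (0.125), Pls1 with Ildr1 (0.0906) and Xirp2 with 1700003M02Rik (0.282). The member nearest to Espn was Triobp (0.397), which came 2344 in the order of nearness. For the other members, the place of the nearest member ran from 68 (Xirp2) to 5236 (Eps8l2). The 12 libraries are 6 of each age, from separate batches, and they differ in depth, so these values are only a description of them.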

How the data were processed

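Cochlear RNA of 20 libraries, each a pool of 4 mice, was compared between genotypes and ages. The authors enriched poly A RNA, mapped the paired-end reads to mm10 within the nf-core RNA pipeline and quantified genes by Salmon. Pipeline version, annotation release and strand setting are not given in the sources used here. The deposited P22 table and P7 replicates 5 to 7 are estimated counts (expected counts), not normalized. P7 replicates 1 to 4 were deposited as whole numbers treated as a score, read as rounded TPM from their library sums, which no source states. Labels do not tie replicates to the P7 batches. Estimated counts were rounded to integers, filtered (filterByExpr), scaled (TMM) and tested by edgeR 4.0.16 (quasi-likelihood) in R 4.3.3. DESeq2 1.42.0 served as an alternative. For rounded TPM, limma 3.58.1 with a mean-variance trend was run on log2(TPM + 1) after TMM scaling, where the mean reached 5 TPM. On this scale the change of low genes is understated. Library values, means, sums and exact tests in rounded TPM were taken without TMM scaling. Adjustment was over all genes tested. Gene positions are from GENCODE M21 on GRCm38. All members were named in each comparison, and from related lists the called genes with the largest changes. Members, lists and tests were chosen with earlier results of these data known. The edgeR and limma fits with TMM scaling were tested on simulated data. The other settings and steps were not part of that test. No column of values was left unused (0 columns). Labels do not say that pools of a group came from separate litters, so p values measure the spread between pools.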

Additional observations from a re-analysis of the deposited data

Results flagged for a closer look

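In the libraries in rounded TPM, 3 of 17 groups of 4 had 1 library apart from otherwise equal values. Dixon's outlier test always flags such a group, so its rate of about 1 group in 20 for continuous values does not apply here. Fscn2 was at 5 in 1 P7 Het library and at 6 in the other 3. Xirp2 was at 0 in 1 P7 Het library and in 1 P7 Homo library, and at 1 in the others. Each of these gaps is 1 unit, the smallest step of a value rounded to whole numbers.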

How the results depend on the processing

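Over all alternatives, 625 of the members' log2 fold changes kept their direction and call, 9 gained a call, 12 lost one and 54 changed sign. The P22 comparison called 2 members, and 1 to 2 with a library left out. Scaling to hair cell markers without Calb2 called 4, 1 higher and 3 lower, and with Calb2 called 2, 1 in each direction. The share of all genes called without Calb2 is not given here. The age comparison called 8 (7 to 8 with a library left out), and the difference of genotype effects 0 by edgeR (0 to 1) and 1 by DESeq2. The P7 comparisons called 0 members under each alternative run. DESeq2, the filter on low counts and total counts changed no member's call at P22.

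Changes of sign at P22 were Whrn with total counts (0.0438), with hair cell scaling Eps8 (-0.075), Eps8l2 (-0.0998), Triobp (-0.16) and Pls1 (-0.18), and the same without Calb2 Eps8 (-0.15), Eps8l2 (-0.17), Triobp (-0.23), Fscn2 (-0.0695) and Pls1 (-0.25). At P7 in counts they were Triobp with total counts (0.0177), Fscn2 with hair cell scaling (-0.0609) and, without Calb2, Fscn2 (-0.15) and Pls1 (-0.0324). For age they were Espn with DESeq2 (0.0031), with hair cell scaling (0.50) and within Homo (0.53), and Whrn with hair cell scaling (0.20). For the difference of genotype effects they were Eps8 with total counts (0.0055) and, with hair cell scaling, Eps8l2 (-0.25), Myo15 (-0.0389), Triobp (-0.0259) and Pls1 (-0.18). The cause was not tested.

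With a library left out, members that changed sign ranged at P22 as Espnl -0.79 to 0.42, Whrn -0.10 to 0.0402 and Xirp2 -0.49 to 0.43. At P7 in counts the ranges were Espn -0.27 to 0.0856, Triobp -0.0897 to 0.0594, Fscn2 -0.15 to 0.23, Pls1 -0.0564 to 0.36 and Xirp2 -0.22 to 0.52, and in rounded TPM Eps8l2 -0.0286 to 0.18. For age the range was Espn -0.11 to 0.0765. For the difference of genotype effects they were Espnl -1.07 to 0.15, Eps8 -0.15 to 0.0777, Eps8l2 -0.0256 to 0.24, Pls1 -0.12 to 0.32 and Xirp2 -0.71 to 0.20.

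Same-numbered replicates did not deviate together: correlations of their deviations were -0.0191 to 0.0253 at P22, -0.190 to 0.0806 at P7 in counts and -0.232 to -0.0119 in rounded TPM. With a replicate block the members called were 2 at P22, 0 at P7 in counts and 0 in rounded TPM. The counts of all genes called were 466, 0 and 0, against 487, 0 and 95 without it. No paired analysis was possible because the ages share no replicate number for the age comparison and its interaction.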
